A study of Mus musculus with 3 samples.

Results

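Small RNAs that match the genes of the proteasome were described in a pooled list of sequences bound to Mili or Tdrd1 in mouse testis. The genes were all protein-coding genes of GENCODE vM21 whose symbol begins with Psma, Psmb, Psmc, Psmd, Psme, Psmf or Psmg followed by a digit, which gave 50 of 21951 protein-coding genes. A listed sequence was assigned to a gene where it matched a transcript of the gene exactly and over its whole length, and where the listed chromosome was that of the gene. By this rule 3686 of the 2219118 listed sequences matched these genes in the sense direction (0.166%, exact 95% interval 0.161 to 0.172%) and 93 in the antisense direction. The name of the group holds for 49 of the 50 genes. Psmc3ip has a symbol that meets the rule, but it encodes a partner of the meiotic recombinases and no part of the proteasome. Counts, medians and shares given below for the proteasome genes include it unless stated otherwise.

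The series holds 3 libraries of small RNAs from testis of the C57BL/6 strain, 1 per group. They are a Mili immunoprecipitate from animals lacking Tdrd1, taken 15 days after birth, a Tdrd1 immunoprecipitate from adult animals, and a Mili immunoprecipitate from adult wild-type animals. Mili, encoded by Piwil2, belongs to the Piwi family and binds piRNAs, the germ cell small RNAs known for silencing transposons, and Tdrd1 is a Tudor-domain protein that binds Mili. No source used here names the allele that removes Tdrd1 or the number of animals behind a library, and the knockout and wild-type libraries differ in stated age and in genotype. In the deposited list the libraries are pooled. It gives each distinct sequence once and carries neither read numbers nor library names. Every value below is therefore a number of distinct sequences in the pooled list, the depth of each library is unknown, and no comparison between the immunoprecipitates could be made.

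The proteasome is the protease that degrades proteins tagged with ubiquitin. Its core particle is a barrel of alpha rings (Psma genes) around beta rings (Psmb genes) that hold the active sites. The regulatory particle that caps it has a ring of ATPases (Psmc genes) that unfold the substrate and further subunits (most Psmd genes) that bind and deubiquitinate it, while other caps (Psme genes), an inhibitor (Psmf1) and chaperones of assembly (Psmg genes, Psmd5, Psmd9 and Psmd10) act on the core or on the base of the cap. Male germ cells have forms of their own, among them the alpha subunit Psma8, and the activator Psme4 is known for the removal of acetylated histones in spermatids. piRNAs are cut from long single-stranded precursors, mRNAs included, mostly begin with U, and several 3′ ends can share a 5′ end.

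The sequences from the 5 genes with most sense matches show this form. For each gene the longest sequence of at most 30 nt was taken from the 5′ end that carried most 3′ ends (among equals, the lowest start), written 5′ to 3′ as in the deposited list (T for U), with the first base in capitals.
Psma6: Ttcaagataacggaaagcattggctgtgt
Psmf1: Taaagaactgtatgccctccggtatgagtc
Psmb7: Taatcggatgctgaagcagatgctcttcag
Psmb4: Taagatggaagcgttttgggagtcacggg
Psmc3: Tgatgtgaactatgaagagctggctcggtg
All 5 begin with T, but they were picked from the 5′ ends with most 3′ ends. Over all sequences of 24 to 32 nt from these genes, the share beginning with U ran from 50.8% (Psmb7) to 65.7% (Psma6). The printed sequences of Psma6, Psmf1, Psmb7 and Psmc3 lie in coding sequence. That of Psmb4 begins in the 5′ untranslated region and runs across the start codon into coding sequence. On mm9 the Psma6 sequence lies at chr12:56509025-56509053 on the plus strand, the Psmf1 sequence at chr2:151561280-151561309 on the minus strand and the Psmb7 sequence at chr2:38495593-38495622 on the minus strand. The Psmb4 sequence lies at chr3:94690806-94690834 on the minus strand and the Psmc3 sequence at chr2:90899206-90899235 on the plus strand. The number of distinct sequences from these 5′ ends was 5 for Psma6, 7 for Psmf1, 7 for Psmb7, 5 for Psmb4 and 6 for Psmc3.

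The other sequences of the Psma6 5′ end show how the 3′ ends vary while the 5′ end stays fixed.
Psma6, 19 nt: Ttcaagataacggaaagca
Psma6, 26 nt: Ttcaagataacggaaagcattggctg
Psma6, 27 nt: Ttcaagataacggaaagcattggctgt
Psma6, 28 nt: Ttcaagataacggaaagcattggctgtg
These 4 and the sequence of 29 nt above differ only in their last bases. The shortest lies well below the 28 to 30 nt for which the RNA was eluted from the gel, per the labels.

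All 50 genes had at least 1 sense sequence (100%, exact 95% interval 92.9 to 100%), against 71% of all protein-coding genes. The number per gene ran from 2 to 251 with a median of 62, and the median over all protein-coding genes was 10. At least 10 sense sequences were found for 44 genes (88%), against 50.8% of all protein-coding genes. At least 100 sense sequences were found for 14 of the 50 genes (28%), against 14.5% of all protein-coding genes, but only Psma6 reached 200, a number that 6.05% of all protein-coding genes reached. The 10 genes with most sequences held 1581 of the 3686 (42.9%).

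**Figure D1:**
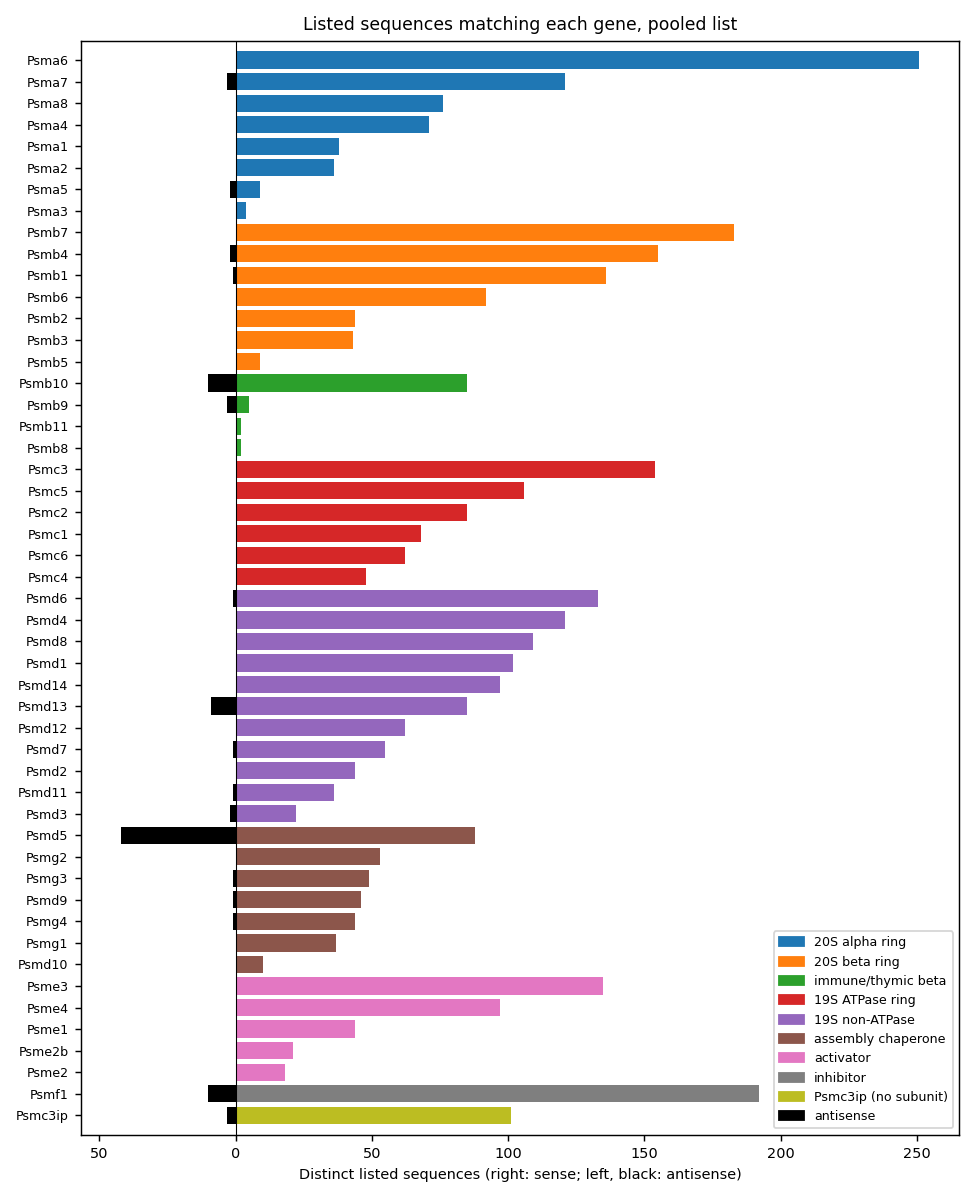
Number of distinct listed sequences matching each of the 50 genes, grouped by role; bars to the right are sense, black bars to the left antisense. Psma6 reaches 251 sense sequences, Psmb8 and Psmb11 have 2 each, and the longest antisense bar is that of Psmd5 with 42.

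Per length the genes stood above most others. The median was 24.7 sense sequences per kb of merged exon over the 50 genes, with an interval of 16.9 to 30.5 from the order of the values, and 24.3 over the 49 without Psmc3ip. Over all protein-coding genes the median was 2.89 per kb, and over the other protein-coding genes with at least 1 sense sequence it was 7.498. Of the 50 genes 46 lay above the median of all protein-coding genes (50% by construction), 28 had at least 20 per kb, where 16.6% of all protein-coding genes did, and 19 lay among the densest 10% of protein-coding genes. The list was described and not tested against other genes. In a pooled list of whole testis, more cells of a type, more RNA per cell and more cutting of that RNA cannot be told apart.

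The alpha ring genes had the widest range. Psma6, an alpha subunit of the core, had 251 sense and 0 antisense sequences, 203 per kb, and 99.9% of protein-coding genes had a lower density. Its sequences lay between 56499856 and 56519433 of chromosome 12. Psma7, the alpha subunit of body tissues, had 121 sense sequences (39.4 per kb), and Psma8, the germ cell form that takes its place, had 76 (30.5 per kb). Both thus lay near the 90th percentile of all protein-coding genes, which was 30.0 per kb. Psma4 had 71 (30.0 per kb), Psma1 38 and Psma2 36. Psma5 had 9 (6.81 per kb) and Psma3 had 4 (1.03 per kb), the only alpha ring gene below the median of all protein-coding genes.

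The 7 constitutive beta ring genes had the highest median among the roles with several genes, 36.5 per kb, with a range from 10.01 to 79.4. Psmb7, which carries the trypsin-like active site, had 183 sense sequences (53.5 per kb, chromosome 2 from 38443645 to 38499559). The non-catalytic subunit gene Psmb4 had 155 (79.4 per kb) and Psmb1 had 136 (29.6 per kb). Psmb6, which carries the caspase-like active site, had 92 (49.1 per kb), Psmb2 44 and Psmb3 43. Psmb5, which carries the chymotrypsin-like active site, was the lowest with 9 (10.01 per kb), in an mRNA that shares 70.2% of its start positions within 1 exon with a copy on another chromosome. The genes of the active sites thus ran from 10.01 to 53.5 per kb. The other beta ring genes had 79.4 (Psmb4), 36.5 (Psmb2), 29.6 (Psmb1) and 18.7 per kb (Psmb3), so that the ranges overlapped.

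The beta subunits that replace these in immune cells and in the thymus were split. Psmb10 had 85 sense and 10 antisense sequences (49.9 sense per kb of merged exon), close to the 49.1 per kb of Psmb6. Per kb of start positions within 1 exon the values lay further apart, 77.1 for Psmb10 and 140 for Psmb6. In contrast Psmb9 had 5 sense and 3 antisense sequences (1.37 per kb) and Psmb8 had 2 and 0 (0.592 per kb). Psmb11, the form of the thymic cortex, had 2 and 0 (0.417 per kb). Psmb8, Psmb9, Psmb11 and Psma3 were the 4 genes below the median of all protein-coding genes. Of 4 genes that mark leukocytes, Ptprc, Cd74 and Lyz2 had 0 sense sequences each, while Cd3e had 12 (2.94 per kb), just above the median of all protein-coding genes. All 8 germ cell genes looked up for comparison had sense sequences, with a median of 78.2 per kb and a lowest value of 40.1 for Ddx4. The 4 Sertoli cell genes had 15 sense sequences in all and a median of 1.13 per kb. The 5 Leydig cell genes had 86 in all, 78 of them from Star, and a median of 0.208 per kb. The part of cell type in the values of the proteasome genes was not tested.

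**Figure D2:**
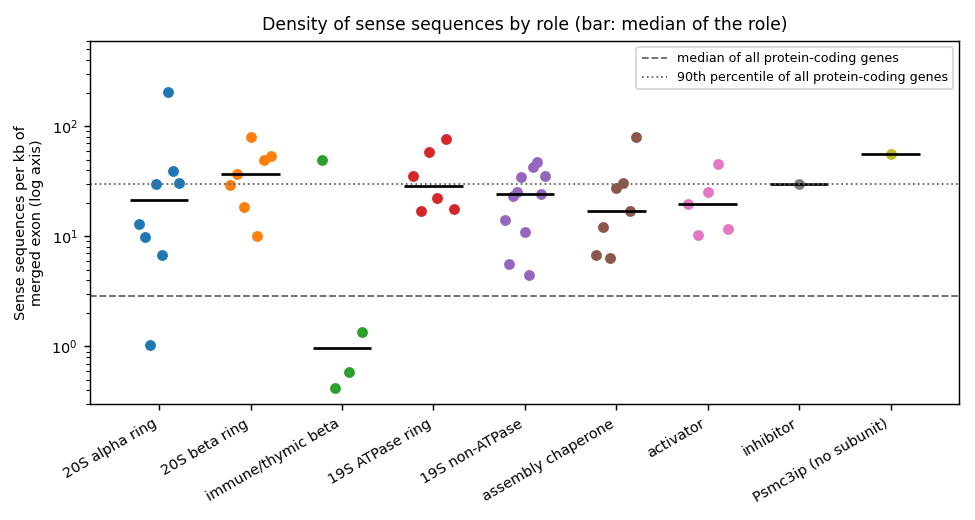
Sense sequences per kb of merged exon for each of the 50 genes by role, on a log axis; black bars are medians of the role, and the dashed and dotted lines the median (2.89) and the 90th percentile (30.0) of all protein-coding genes. Psma6 stands alone at 203 per kb, and 3 of the 4 immune and thymic beta genes lie below the dashed line with Psma3.

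All 6 ATPase genes and all 11 non-ATPase subunit genes of the regulatory particle lay above the median of all protein-coding genes. The ATPase genes ranged from 16.9 per kb (Psmc2) to 76.0 (Psmc5), with a median of 28.7 and 0 antisense sequences among them. Psmc3 had 154 sense sequences (59.1 per kb) and Psmc5 had 106. The others had 85 (Psmc2), 68 (Psmc1), 62 (Psmc6) and 48 (Psmc4) sense sequences. The non-ATPase subunit genes had a median of 24.3 per kb. The lid subunit gene Psmd6 had 133 (47.5 per kb), Psmd4, which encodes a ubiquitin receptor, had 121 (43.1 per kb), and Psmd14, which encodes the deubiquitinase of the lid, had 97 (34.4 per kb). Psmd8 had 109 sense sequences, Psmd13 85, Psmd12 62 and Psmd7 55. The lowest were the lid genes Psmd3 with 22 (4.43 per kb) and Psmd11 with 36 (5.64 per kb). The scaffold genes Psmd1 and Psmd2 had 102 (14.04 per kb) and 44 (10.9 per kb). Of the Psmd1 sequences 41 also matched Gm21972, a protein-coding gene annotated on the same strand of chromosome 1, so that only 61 belonged to Psmd1 alone.

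The activators differed among themselves. Psme3, the nuclear activator, had 135 sense sequences (45.8 per kb) and Psme4 97 over its longer mRNA (11.6 per kb). Of the subunits of the interferon-induced activator, Psme1 had 44 (19.9 per kb) and Psme2 had 18 (10.2 per kb). Per kb of start positions within 1 exon and without a copy on another chromosome the order turned, with 75.3 for Psme2, 59.0 for Psme1, 56.3 for Psme3 and 18.2 for Psme4. Psme2b, an annotated gene of 1 exon on chromosome 11 that copies Psme2, had 21. The inhibitor gene Psmf1 had 192 sense and 10 antisense sequences (29.8 sense per kb, chromosome 2 from 151541879 to 151567011), next in number to Psma6.

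The 7 chaperone genes had 327 sense sequences and a median of 16.9 per kb. Psmg4, which helps to build the alpha ring, had 44 in merged exons of 555 bp, 79.3 per kb. Its partner Psmg3 had 49 (16.9 per kb), 18 of which also matched Gm26938 on the same strand. Psmg2 had 53 and Psmg1 37. The chaperones of the ATPase ring had 10 (Psmd10, the fewest of the 7), 46 (Psmd9, the least dense with 6.35 per kb) and 88 (Psmd5). Psmc3ip, the recombination gene, had 101 sense and 3 antisense sequences (55.6 sense per kb).

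Genes of the same pathway outside the symbol rule had a lower median, 17.5 per kb, and a range from 2.38 to 102 per kb, and the difference was not tested. Of the 27 symbols looked up, 24 were annotated, and all 24 had sense sequences, as did 71% of all protein-coding genes. The aspartyl protease gene Ddi2, which acts on the transcription factor that induces proteasome genes, was the highest with 974 (102 per kb). That factor's gene, Nfe2l1, had 199 (36.6 per kb). Sem1, a small lid subunit, had 119 (33.6 per kb), the deubiquitinase gene Uchl5 had 94 (32.2 per kb) and Usp14 had 60 (7.19 per kb). Adrm1, the ubiquitin receptor that binds Uchl5, had 14 (3.14 per kb), and the maturation factor gene Pomp had 50 (9.59 per kb). Ubb, a gene of ubiquitin itself, had 42, and the activating enzyme genes Uba1 and Uba6 47 and 144.

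Within the mRNAs the sequences lay mainly in coding sequence. They were placed on the representative transcript of their gene, the coding transcript with the longest coding sequence and, among equals, the longest transcript. This choice favours long untranslated regions. Of 3604 sense sequences placed, 2965 had their midpoint in coding sequence (82.3%, exact 95% interval 81.0 to 83.5%). A further 543 had it in the 3′ untranslated region (15.1%, 13.9 to 16.3%) and 96 in the 5′ untranslated region (2.66%, 2.16 to 3.24%). Coding sequence made up 61.0% of the length of these transcripts and the 3′ untranslated region 30.6%. Summed over the other protein-coding genes, 48.2% of sequences lay in coding sequence, which made up 53.1% of length, and 48.4% in the 3′ untranslated region, which made up 40.3%. Among the 42 proteasome genes with at least 20 placed sequences, coding sequence was denser than the 3′ untranslated region in 33 (78.6%), against 54.6% of all such protein-coding genes. Sequences of 1 transcript are not independent, and no test was made.

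The difference from other genes was wider among genes with long 3′ untranslated regions. The median length of these regions was 237 nt in the proteasome genes with placed sequences and 890 nt in the other genes. For regions up to 500 nt the share in coding sequence was 85.6% in 35 proteasome genes and 84.8% in other genes, while the share of length was 74.6% and 81.0%. For regions of over 500 and up to 1500 nt it was 83.8% in 7 genes that met the rule and 67.2% in other genes, with 63.7% and 61.6% of length. Psmc3ip, which is no proteasome gene, gave 101 of the 532 sequences of these 7 genes, 96 of them in coding sequence. In both of these classes the other genes, too, had a larger share of sequences than of length in coding sequence. For regions over 1500 nt it was 64.7% (exact 95% interval 60.5 to 68.8%) in 7 proteasome genes, where coding sequence made up 29.5% of length, and 29.8% in other genes, where it made up 36.5%. Most of the 530 sequences of these 7 genes came from Psmf1 (191, 54.5% in coding sequence) and Psme3 (134, 55.2%). All 6 proteasome genes of this class with at least 20 placed sequences were denser in coding sequence, against 41.4% of other genes of the class. The 3′ ends that these mRNAs have in testis were not measured.

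**Figure D3:**
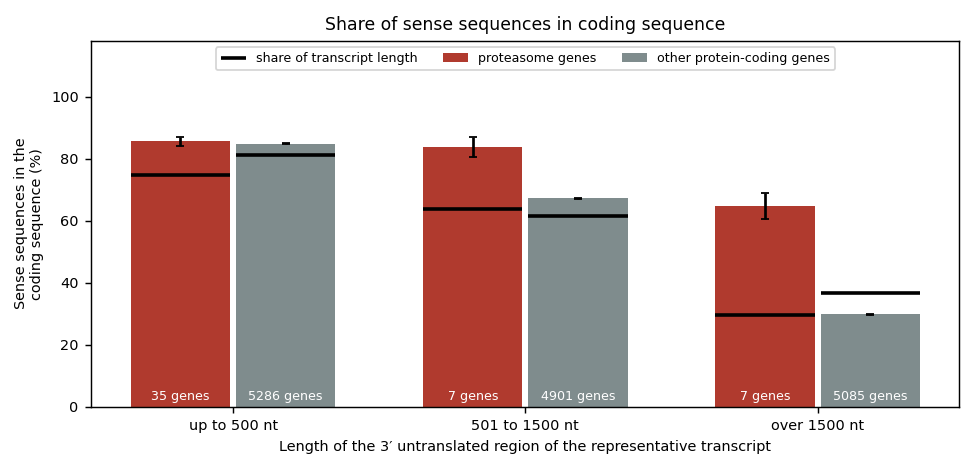
Share of placed sense sequences in coding sequence, by length of the 3′ untranslated region of the representative transcript, for proteasome genes (red bars) and other protein-coding genes (grey bars); error bars are exact 95% intervals over sequences and black lines the share of transcript length. In the class over 1500 nt the shares are 64.7% and 29.8%.

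Single genes show the pattern. In Psmb1 128 of 134 placed sequences lay in the 723 nt of coding sequence (177 per kb) and 5 in a 3′ untranslated region of 999 nt (5.01 per kb). In Psma2 34 of 36 lay in the 705 nt of coding sequence and 2 in 2171 nt of 3′ untranslated region. The last covered nucleotide was 781 in Psmb1 and 761 in Psma2, where coding sequence ended at 759 and 740. Whether the mRNAs of these genes in testis hold the rest of these regions was not measured. In Psmd5 71 of 88 lay in coding sequence (46.9 per kb) and 16 in 2842 nt of 3′ untranslated region (5.63 per kb). Psmf1 had 104 in coding sequence (127 per kb) and 82 spread over a 3′ untranslated region of 2822 nt (29.1 per kb). Psma8 had 41 in coding sequence (54.4 per kb) and 35 in the 3′ untranslated region (40.7 per kb), the highest share there of the 42 genes (46.1%). In 9 genes the 3′ untranslated region was the denser part, namely Psmd4, Psmd1, Psme4, Psmb6, Psmb10, Psmd13, Psmc1, Psmb2 and Psma1. Psmb6 had 29 of its 90 in a 3′ untranslated region of only 70 nt (414 per kb) and 61 in coding sequence (85.1 per kb). In Psmc3 and Psmc5 0 placed sequences lay in the 3′ untranslated region, with 114 and 106 in coding sequence. Of the 154 sense sequences of Psmc3 only 125 were placed, and the others matched only other transcripts of the gene. The last covered nucleotide of its representative transcript was 1398, before the end of coding sequence at 1549. The 0 of Psmc3 therefore holds for that transcript alone.

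Along the coding sequence the sequences were nearly even. When each coding sequence was cut into 3 equal parts, the first, middle and last held 34.03%, 30.02% and 35.95% of the coding matches of the proteasome genes, where 33.23%, 32.99% and 33.78% of the possible start positions lay. On a finer scale the sequences left part of each transcript uncovered. The covered share of the representative transcript ran from 11.03% in Psma2 to 82.0% in Psma6, with a median of 37.8% over the 42 genes. The densest stretch of 100 nt held the starts of a median of 26.9% of the sequences of a gene in a median of 6.72% of its length, and its centre lay in coding sequence in 37 of the 42. As the stretch was chosen for its density, its share would exceed its share of length for randomly scattered starts too. No other genes were set beside these. In Psmb7 75 of 183 sequences began between nucleotides 286 and 385 of the transcript, and in Psmg4 31 of 44 began between 395 and 494. In Psme4, the longest of these mRNAs, the densest stretch held 10 of 96 sequences (10.4%) in 1.54% of its length, and in Psma6 it held 51 of 251 (20.3%) in 9.60%.

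**Figure D4:**
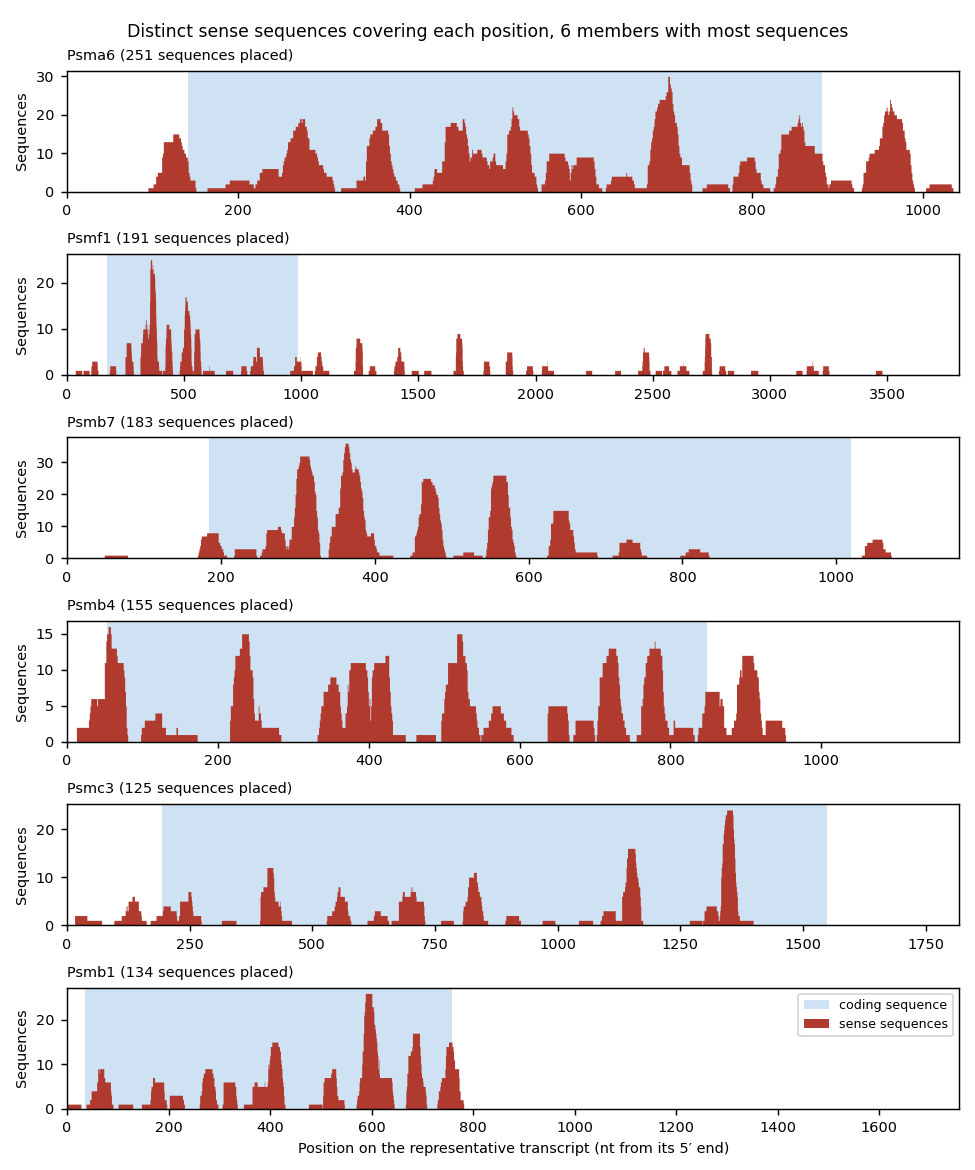
Number of distinct sense sequences covering each nucleotide of the representative transcript in the 6 genes with most sequences; the blue field is the coding sequence. In Psma6 sequences cover 82.0% of the transcript with up to 30 at 1 position, whereas in Psmb1 they end near nucleotide 781 of 1758 and in Psmf1 smaller peaks run through the 3′ untranslated region.

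U was the first base less often than in other genes. Of the 3654 sense sequences of 24 to 32 nt, 55.0% began with U (exact 95% interval 53.4 to 56.7%), 21.7% with A, 11.9% with C and 11.3% with G. Other protein-coding genes had 67.7% U and 15.2% A. The share was lower within each part of the mRNA: 54.1% (52.3 to 55.9%) against 59.5% in coding sequence, 60.8% (56.5 to 65.0%) against 75.2% in the 3′ untranslated region, and 56.2% (45.7 to 66.4%) against 62.4% in the 5′ untranslated region, where the interval reaches the other genes' value. U made up 23.2% of the coding sequence and 30.7% of the 3′ untranslated region of these genes, and 21.6% and 29.4% in other genes. These are shares of whole parts and not of the covered stretches, and the role of base composition was not tested. Among genes with at least 20 sequences the median share was 54.8% over 42 proteasome genes, with a middle range of 45.7 to 62.5%, and 65.7% over 9262 other genes, with 56.6 to 74.1%.

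The share of U varied among the genes. It was highest in Psmb2 (72.7% of 44 sequences) and Psmg3 (71.4% of 49) and lowest in Psma4 (29.6% of 71, exact 95% interval 19.3 to 41.6%) and Psmd7 (30.9% of 55). Psmc3ip had 40.8% of 98. Of the richer genes, Psme3 had 69.7%, Psma6 65.7%, Psmf1 65.6% and Psmb4 62.7%, whereas Psmd4 had 42.1% and Psmb1 45.5%. In both sets U was more frequent in longer sequences. In the proteasome genes it began 53.5% of sequences of 27 nt and 66.3% of those of 31 nt, and in other genes 66.4% and 77.5%.

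**Figure D5:**
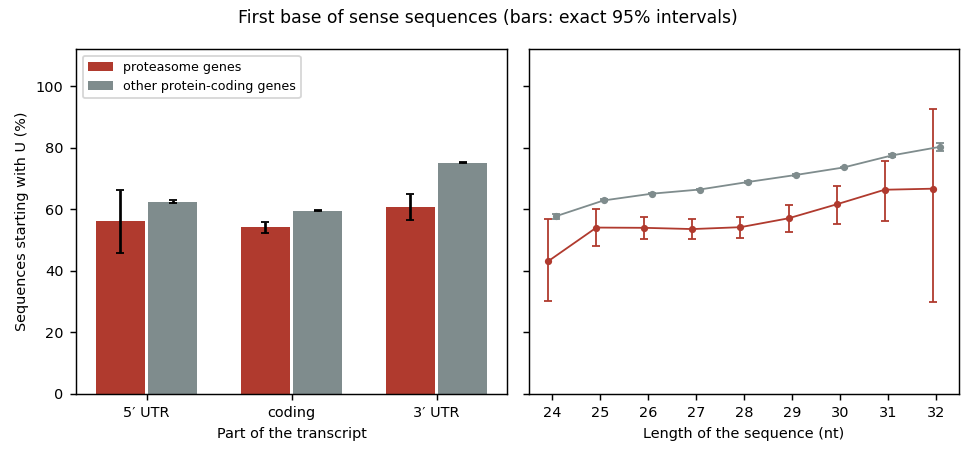
Share of sense sequences beginning with U by part of the mRNA (left) and by length (right), for proteasome genes (red) and other protein-coding genes (grey), with exact 95% intervals over sequences. The proteasome genes lie lower at each length, with intervals that reach the grey points only at 32 nt.

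Lengths were close to those of the remaining genes. The mean length was 27.4 nt in both sets, and 75.6% of the proteasome sequences measured 24 to 28 nt, against 75.9%. A stood at position 10 in 33.1% (31.6 to 34.6%), against 32.1%. The 3686 sequences came from 2544 5′ ends, 1.45 per end, against 1.42. U began 42.6% of the 5′ ends with 1 sequence and 85% of the 40 ends with at least 5 (exact 95% interval 70.2 to 94.3%), against 56.1% and 91.3% in other genes. The base after the 3′ end was U in 24.2% (22.8 to 25.6%), against 25.7%, and the next base was U in 23.1% and 24.5%. A 5′ end directly after a 3′ end was found 136 times, 0.909 times the mean over distances of 1 to 50 nt, against 1.02 times in other genes.

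Antisense sequences were few. The 93 amounted to 2.52 per 100 sense sequences, against 3.98 in other protein-coding genes, and 17 of the 50 genes had at least 1 (34%), against 30% of all protein-coding genes. At least 5 were found for 4 genes (8%), against 8.61%. Psmd5 had 42, from 27 5′ ends between 34726630 and 34727655 of chromosome 2, and 75.6% of those of 24 to 32 nt began with U (exact 95% interval 59.7 to 87.6%). None of the 42 lay on its representative transcript or matched another annotated gene in the sense direction. The 10 of Psmf1 all lay in its 3′ untranslated region. The 9 of Psmd13 lay in its 5′ untranslated region, and all 9 matched Sirt3, the gene on the other strand, in the sense direction. The 10 of Psmb10 matched no other gene in the sense direction, and 4 of them lay on its representative transcript. Sense and antisense sequences of 1 gene formed 0 pairs with 5′ ends overlapping by 10 nt, the offset of the ping-pong cycle in which piRNAs of opposite strands make each other, and 12 pairs at the other overlaps of 1 to 20 nt. The 42 of Psmd5 could form no pair, since its sense sequences end at 34726474, before the first of them. So few pairs cannot show whether any overlap is preferred.

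Some of the genes have near-identical copies elsewhere in the genome. Among start positions of 27 nt that fall within 1 exon of a representative transcript, 9.83% gave a stretch also found in an annotated transcript of another chromosome. That share was 80.9% for Psme2b, 70.2% for Psmb5, 65.9% for Psmb3, 64.6% for Psme2 and 61.4% for Psma5. It was 49.9% for Psmd2, 44.4% for Psmc1, 41.5% for Psma4, 28.2% for Psmd11 and 24.3% for Psma3, and it was 0 for 21 genes, among them Psmb8 and Psmb9. Of the 3665 sense sequences of the 49 genes other than Psme2b, 0 also matched a transcript of another chromosome, which allows a share of up to 0.0819%. With all start positions within 1 exon replaced by those without a copy, the sequences per kb of start positions moved to 36.7 for Psmb5 (10.96 with all), 197 for Psmb3 (67.2), 75.3 for Psme2 (26.6) and 23.2 for Psma5 (8.96). For Psma3 the value stayed low, 2.07 without a copy and 1.56 with all. No source used here says how sequences with several positions were treated, and the part of the copies in the low values was not tested.

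In the sense direction 131 sequences matched 14 of the genes but were listed on another chromosome. All 131 crossed an exon-exon junction of the gene, and 108 matched an annotated pseudogene at the listed place. Of the 131, 21 were those already counted for Psme2b, which match Psme2 across its junctions. Psma3 had more of these (16, on chromosome 6) than sequences at its own place (4). The copy of Psmb1 on chromosome X had 18 and the copy of Psma4, the pseudogene Gm6542, had 19. The list holds 1 unbroken range per sequence. Whether these sequences came from the spliced mRNA or from the copy was not tested.

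For 4 of the 5 pseudogene copies with at least 9 sequences, 1 sequence each is given (none is printed for the copy of Psma4) to show the junction, with the bases on both sides of it in capitals.
Psma3: tgttgatcgacatgttggaatGGcagtt
Psmc1: ttagaagaaaagcaagaGGaggaaagatc
Psmd2: tgcgaacttttggtcacttGCtgagata
Psmb1: tcattggaggacttgatgaagaaGGaaag
The Psma3 sequence joins exons 3 and 4 and is listed at chr6:31092513-31092540 of mm9, in the pseudogene Gm13835. The Psmc1 sequence joins exons 4 and 5 and is listed at chr16:50666193-50666221, in Gm9575. The Psmd2 sequence joins exons 16 and 17 and is listed at chr10:30969972-30969999, in Gm5422. The Psmb1 sequence joins exons 4 and 5 and is listed at chrX:92020601-92020629, in Gm14830. By the annotation the copy on chromosome 10 lies on the plus strand and the other copies on the minus strand.

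Of the start positions of 27 nt in the representative transcripts, 14.5% crossed a junction in the proteasome genes and 8.44% in other genes with placed sequences. Counted per kb of start positions that cross none, the median was 49.4 over the 50 genes and 3.89 over all protein-coding genes. At the genes themselves 55 of the 3686 sense sequences matched only across a junction. All 55 were listed within 1000 bp of the place of their gene, and the part beyond the junction measured at most 6 nt, with 1 nt in 24 of them and 2 nt in 19. The other 3631 sequences were likewise all listed within 1000 bp of the place of their gene, after an offset between the builds. No annotation on mm9 was used, and that offset was the most frequent one among the gene's own sequences. Such a check shows that the sequences of a gene lie together, and cannot show that they lie at the gene. Introns added little: the range between the first and last sequence of a gene held a median of 0.164 sequences without an exon match per kb, with a highest value of 1.76 in Psmb6.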

How the data were processed

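Per the file headers, the deposited table gives positions on NCBI mouse build 37, called mm9 in the submitters' processing notes. The authors pooled 3 libraries in 1 list of sequence, chromosome and range, without read number, strand or library, so that the unit deposited is a listed sequence. No source used here names the aligner, the mismatches allowed or the treatment of multiple positions.

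Each sequence was searched exactly and over its whole length, on both strands, in all GENCODE vM21 transcripts (an annotation of GRCm38), with a seed of 18 nt (Python 3.11.15, NumPy 2.4.6, numba 0.67.0). The search was tested on simulated data. A match counted if its transcript and the listed range share a chromosome. Printed coordinates are those of the list, 1-based, and strands those of the annotated gene. Density is the number of distinct sense sequences divided by merged exon length in kb. Intervals are exact Clopper-Pearson 95% intervals (SciPy 1.17.1), cover counting error only, and treat sequences as independent, which neighbours are not.

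The fixed plan foresaw no test between conditions. Genes named are the 10 with most sense sequences, the 5 densest of the rest with at least 10, those with at least 5 antisense sequences and preset testis, immune and activator genes; others serve to account for all members. Members and lists were chosen with earlier results of these data known.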

Additional observations from a re-analysis of the deposited data

Results flagged for a closer look

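The 93 antisense sequences lie outside the sense measurement. Of these, 42 belong to Psmd5.

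Sequences shorter than 24 nt, left out of the shares of first bases, numbered 32, of which 53.1% began with U (exact 95% interval 34.7 to 70.9%).

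Sense matches listed on another chromosome numbered 131, and 55 sequences listed at the genes matched them only across a junction. Controls without antibody were not used here, so that these numbers have no background measured the same way.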

How the results depend on the processing

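Of 35 alternative values 29 stayed close to the value reported (shares and medians within its 95% interval, numbers within 1.5 times), and 6 shares or medians did not. The median density was 33.8 per kb with the longest transcript as length and 49.4 per kb of start positions that cross no junction, against 24.7 with merged exons. With each 5′ end counted once, the share beginning with U was 48.5% and the share in the 3′ untranslated region 16.6%. Placed by its first base, 13.2% lay there. The share expected there was 34.9% from start positions that cross no junction. The settings with start positions, without junction matches, with at least 10 sequences and with a mean over genes were chosen after seeing the data. No paired analysis was possible because each group has 1 library and the list names none. Depth is unknown, so that absent sequences cannot be told from unsequenced ones.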
